A study of Mus musculus with 6 samples.

Results

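The genes described here are 52 mouse genes of primary cilium transport and the transition zone. They were chosen by name, with earlier results of these data known, and found by symbol among the 21878 genes of the deposited table. They comprise 12 genes of IFT-B, 6 of IFT-A, 10 of the BBSome with its recruiting GTPase and assembly factors, 6 of the motors, 13 of the transition zone and 5 for ciliary GTPases, a cargo adaptor and basal body proteins. The primary cilium is a microtubule-based antenna that grows from the mother centriole of resting cells. Its proteins are carried in and out by intraflagellar transport (IFT). Trains built from the IFT-B and IFT-A complexes move outward on kinesin-2 and back on dynein-2, and the BBSome rides with them to move membrane proteins. A gate of membrane and coiled-coil proteins at the base, the transition zone, limits what enters. In fibroblasts the cilium is best known as the place of Hedgehog signalling, and many ciliary genes share a promoter element, the X-box, that is bound by RFX transcription factors.

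The RNA came from the NIH3T3 fibroblast line, which was established from mouse embryos, and all samples are labelled as carrying a radiation injury. In 3 libraries the cells had been treated with exosomes, small vesicles that the series title describes as derived from plasma, and in 3 the cells had received phosphate-buffered saline (PBS), all at the 72 h time point. No radiation dose is given in the labels. Nothing in them says whether replicates were grown as separate cultures, so the p-values cover only library-to-library spread, possibly a technical one. An unirradiated group was not analysed here. The comparison asks how cilium transcripts differed between exosome-treated and PBS-treated cells.

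Counted reads per library were estimated at 19200000 to 22000000 with exosomes and 18800000 to 20100000 with PBS. All 14 fibroblast markers examined passed the expression filter. By limma 8 of them rose with exosomes and 3 fell, where 25.4% of all genes tested rose and 18.4% fell. The median log2 change of the markers was 0.31. Lum, encoding lumican, changed by 1.29, the collagen gene Col1a1 by 0.80 and the fibronectin gene Fn1 by −0.30 (limma adjusted p = 0.000112, 5.85e-06 and 0.0116). The part of this shift in the results on cilium genes was not tested. Of 9 epithelial and 7 endothelial markers, 0 reached 1 FPKM in any library. Leukocyte markers summed to 1.87 to 2.56 FPKM with exosomes and 3.56 to 4.83 FPKM with PBS. Of these, Csf1r was at 0.249 to 0.381 FPKM with exosomes and 0.759 to 3.22 FPKM with PBS. Cd68 overlapped, at 1.44 to 2.08 FPKM with exosomes and 1.53 to 2.64 FPKM with PBS. Platelet and erythroid markers summed to 3.86 to 4.60 FPKM with exosomes and 2.65 to 4.99 FPKM with PBS. Itga2b, the only gene of that list tested, rose by 0.40 ± 0.10 (SE, limma adjusted p = 0.00862). Of 18 genes listed for motile cilia, which are found on multiciliated cells rather than fibroblasts, 16 were under 1 FPKM throughout. Dnah9, Dnah11, Rsph1 and Tekt1 were listed at 0 in all 6 libraries. The exceptions were Ccdc39, with a log2 change of 0.33, and the tubulin gene Tubb4b, with −0.54 (limma adjusted p = 0.00513 and 0.000146). Ccdc39 was at 1.04 to 1.15 FPKM with exosomes and 0.596 to 0.768 FPKM with PBS. It passed the filter only through its exosome libraries, the group where it was higher. Tubb4b was at 68.3 to 76.7 FPKM with exosomes and 101 to 114 FPKM with PBS.

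Cilium transport and transition zone genes were higher with exosomes as a group, by small amounts. The test took 51 of the 52 genes, those reaching 1 FPKM (fragments per kilobase and per 1e6 mapped) in no fewer than 3 libraries. Of these 37 rose and 0 fell at a limma adjusted p under 0.05, and 14 did not pass. At an unadjusted p under 0.05, limma gave 40 higher and 0 lower, where it gave 3079 higher and 2234 lower among all 10274 genes tested. Unadjusted counts of the other lists are also to be read beside these all-gene counts. At the adjusted threshold 25.4% of all genes tested rose and 18.4% fell, 43.8% in either direction. The cilium genes and the other gene lists were chosen with earlier results of these data known. Their difference from these shares is therefore a description and was not tested. The median log2 change was 0.28 over the 51 cilium genes and 0.04 over all genes tested. Changes were above 0 in 47 of the 51, where 56.4% of all genes tested were above 0. The largest change was 0.83 on the log2(FPKM + 1) scale, and 4 of the 37 raised genes changed by 0.5 or more.

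The separate libraries showed the same picture. Summed over all 52 genes, the level was 438 to 457 FPKM in the exosome libraries and 353 to 364 FPKM in the PBS libraries. Relative to each gene's PBS mean, the median log2 level over the 51 tested genes was 0.28, 0.28 and 0.25 in exosome replicates 1 to 3 and 0.00, 0.03 and −0.03 in PBS replicates 1 to 3. Every exosome value lay above every PBS value in 41 of the 51 genes, in 0 every exosome value lay below, and in 10 the groups overlapped. Over all genes tested, 32% had every exosome value above and 23.5% had every exosome value below. Bbs4 and Bbs10, both counted as raised, passed the filter only through their exosome libraries, the group where they were higher. In bulk RNA a change in the share of cells that carry a transcript and a change in its amount per cell cannot be told apart.

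**Figure D1:**
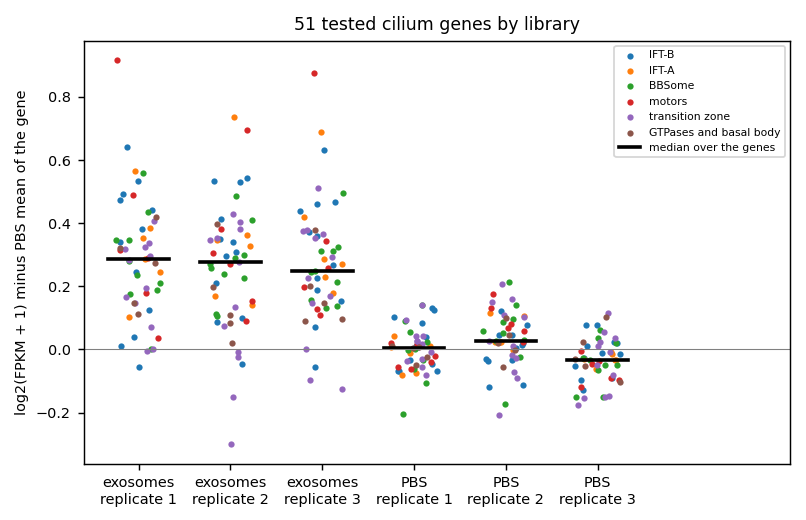
Points are the 51 tested cilium genes in each of the 6 libraries, coloured by group of genes, as log2(FPKM + 1) minus the gene's mean over the PBS libraries; black lines are medians over the genes. The medians lie at 0.28, 0.28 and 0.25 with exosomes and between −0.03 and 0.03 with PBS.

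A count-based comparison of the same libraries is in the authors' deposited table. It lists 30 of the 52 genes as raised and 0 as lowered at an adjusted p under 0.05, where 12.4% of the 15844 genes it tests are raised and 13.5% lowered. All 30 were also raised by limma. In the authors' deposited table the 7 genes raised by limma alone had folds above 1 without passing: Ift140, Ift43, Bbs7, Bbs1, B9d1, Arl3 and Arl13b. The median log2 fold of the 51 genes in the authors' deposited table was 0.27, against −0.01 over all genes tested here. Both sources rest on the same reads and are not independent.

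**Figure D2:**
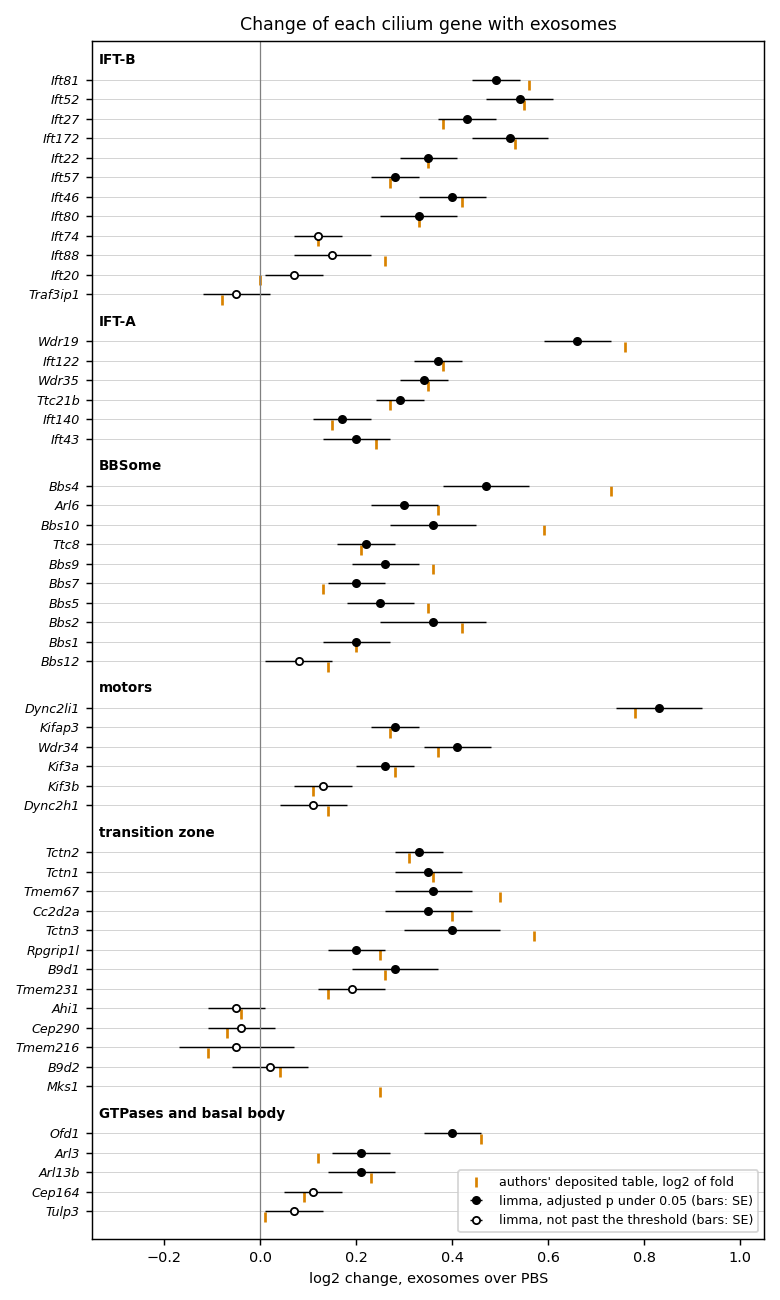
Circles are log2 changes of exosomes over PBS on the log2(FPKM + 1) scale with SE bars (3 libraries each), filled where the limma adjusted p is under 0.05; orange ticks are the log2 fold in the authors' deposited table. The 37 filled circles all lie to the right of 0, with Dync2li1 farthest at 0.83 and Wdr19 next at 0.66.

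Promoters are shown because many genes of this set rose together and because the X-box is the element for which ciliary promoters are known. RefSeq promoters (build GRCm38.p6, 250 bases before and 50 after the start) were matched for 47 of the 52 genes, without Ift80, Ift81, Ift122, Dync2li1 and Tmem67. The element was searched on both strands as GTNNCC, then NNN, then GNAAC, where N is any base. It was present in 12 of the 47 cilium genes (25.5%) and in 446 of 17492 protein-coding genes (2.55%), of which the cilium genes are a part. Among protein-coding genes tested here, 246 of 8047 held it (3.06%). The shorter core GTTGCC, which can lie inside that element, was present in 46.8% of the cilium genes and in 14.3% of protein-coding genes. Among the raised cilium genes with a promoter, 7 of 32 held the longer element (21.9%), and among the others 5 of 15 did (33.3%). Matches are letters in a window and were not tested for binding.

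The matches lay in 2 of 10 IFT-B, 3 of 10 BBSome and 7 of 12 transition zone genes with a promoter. IFT-A, the motors and the group of GTPases and basal body proteins had 5 promoters each and held no match. In 5 genes the match lay before the start and in 7 after it, within the first 50 transcribed bases. The 250 bases before the start follow for 1 raised gene of each group with matches, 5′ to 3′ on the gene's strand, with the element in capitals. The Tctn2 match and the Ift22 match 63 bases before the start fit the pattern only on the other strand. That of Ift22 is chr5:136907900-136908149 on the plus strand, with matches beginning 63 and 33 bases before the start. That of Bbs7 is chr3:36613390-36613639 on the minus strand, with a match 121 bases before the start. That of Tctn2 is chr5:124598499-124598748 on the plus strand, with a match 62 bases before the start.
Ift22: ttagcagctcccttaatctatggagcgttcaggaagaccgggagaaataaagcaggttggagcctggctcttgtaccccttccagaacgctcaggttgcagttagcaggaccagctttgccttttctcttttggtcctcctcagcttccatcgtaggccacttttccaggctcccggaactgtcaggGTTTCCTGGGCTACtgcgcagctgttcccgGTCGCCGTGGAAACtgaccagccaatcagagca
Bbs7: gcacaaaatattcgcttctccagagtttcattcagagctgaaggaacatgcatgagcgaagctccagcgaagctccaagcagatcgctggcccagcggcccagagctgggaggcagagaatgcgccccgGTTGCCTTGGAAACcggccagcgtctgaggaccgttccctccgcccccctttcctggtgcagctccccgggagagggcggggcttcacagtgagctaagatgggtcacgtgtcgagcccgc
Tctn2: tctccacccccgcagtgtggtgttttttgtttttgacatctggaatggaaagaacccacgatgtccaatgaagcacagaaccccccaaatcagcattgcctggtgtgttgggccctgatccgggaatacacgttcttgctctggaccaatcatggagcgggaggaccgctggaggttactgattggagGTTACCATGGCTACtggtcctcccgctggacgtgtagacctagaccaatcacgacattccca

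Shorter windows show the element, in capitals, in raised and in other genes, so that both can be compared. Ift57 (chr16:49699199-49699228, plus strand), Bbs1 (chr19:4906605-4906634, minus strand), Bbs4 (chr9:59353464-59353493, minus strand) and Tctn1 (chr5:122264411-122264432, minus strand) were raised. Ahi1 (chr10:20952560-20952589, plus strand), B9d2 (chr7:25680788-25680817, plus strand) and Tmem216 (chr19:10555723-10555752, minus strand) did not pass the test. The search itself fixes letters inside the element as well as its GT and AC ends, in both kinds of gene. Likeness in those letters therefore says nothing. The elements of Ift57, Bbs1 and Tmem216 fit the pattern only on the other strand, so here they are printed as its reverse complement.
Ift57: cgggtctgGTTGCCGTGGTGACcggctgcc
Bbs1: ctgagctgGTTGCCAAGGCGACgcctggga
Bbs4: ctcagctgGTCGCCCGGGAAACggtcggct
Tctn1: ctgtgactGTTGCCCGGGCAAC
Ahi1: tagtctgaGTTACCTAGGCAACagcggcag
B9d2: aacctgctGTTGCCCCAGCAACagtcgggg
Tmem216: tgtacgcaGTTTCCATGGGGACtgaacatg

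Of 9 genes for RFX factors and FOXJ1, which bind such elements or drive motile cilia, 5 were tested and 0 rose or fell by limma. At an unadjusted p under 0.05, limma gave 0 higher and 1 lower, and the authors' deposited table lists 0 raised and 1 lowered. With median-of-ratios scaling limma gave 1 lower. Rfx3, a regulator of ciliary genes in mouse, averaged 1.68 ± 0.0569 FPKM with exosomes and 1.57 ± 0.103 FPKM with PBS (limma adjusted p = 0.477). Foxj1 was at 0.03 to 0.0659 FPKM with exosomes and 0.0496 to 0.102 FPKM with PBS.

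IFT-B, the complex of outward trains, rose in 8 of 12 genes and fell in 0, with a median log2 change of 0.34. Ift81, whose protein pairs with IFT74 to bind tubulin cargo, was at 12.7, 13.3 and 12.7 FPKM with exosomes and at 8.68, 8.99 and 9.05 FPKM with PBS. Its log2 change was 0.49 ± 0.05 (SE, limma adjusted p = 7.09e-05). Ift52, a core subunit on which the complex is built, was at 16.1, 14.8 and 14.1 FPKM with exosomes and at 10.6, 10.3 and 9.03 FPKM with PBS. It rose by 0.54 ± 0.07 (limma adjusted p = 0.000327). Ift27, a GTPase-like subunit that links the trains to exit of the BBSome from the cilium, was at 21.6, 21.2 and 21.6 FPKM with exosomes and at 17.2, 15.3 and 14.6 FPKM with PBS, a rise of 0.43 ± 0.06 (limma adjusted p = 0.000528). In each of the 3 genes the groups stood apart. The Entrez identifiers are 12589 for Ift81, 245866 for Ift52 and 67042 for Ift27.

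The other raised IFT-B genes were Ift172, Ift22, Ift57, Ift46 and Ift80, with log2 changes of 0.28 to 0.52. Ift172, the largest peripheral subunit, averaged 7.89 ± 0.772 FPKM with exosomes and 5.20 ± 0.458 FPKM with PBS (SD, n = 3 each, limma adjusted p = 0.000776). Not past the threshold were Ift74, Ift88, Ift20 and Traf3ip1. Ift88, the gene mutated in the Oak Ridge polycystic kidney mouse, was at 2.11, 2.57 and 2.61 FPKM with exosomes and at 1.94, 2.26 and 2.06 FPKM with PBS, with overlapping groups (limma adjusted p = 0.153). Ift20, which also works at the Golgi, averaged 22.3 ± 0.483 FPKM with exosomes and 21.3 ± 1.59 FPKM with PBS (limma adjusted p = 0.353). Traf3ip1, which encodes the microtubule-binding subunit IFT54, averaged 2.86 ± 0.0128 FPKM with exosomes and 3.01 ± 0.314 FPKM with PBS (limma adjusted p = 0.565). Mean levels of the 12 subunit genes, which FPKM scales by length, ran over a wide range, with Ift88 lowest and Ift20 highest in each group.

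IFT-A, the complex of return trains, which also brings membrane proteins into the cilium, rose in all 6 of its genes by limma. Wdr19, encoding the core subunit IFT144, was at 6.01, 6.90 and 6.64 FPKM with exosomes and at 3.50, 4.10 and 3.64 FPKM with PBS. It was 1.74-fold higher in mean FPKM and rose by 0.66 ± 0.07 on the log2 scale (limma adjusted p = 0.00011). Ift122, another core subunit, was at 6.50, 6.37 and 6.85 FPKM with exosomes and at 4.91, 4.97 and 4.74 FPKM with PBS, a rise of 0.37 ± 0.05 (limma adjusted p = 0.000698). Wdr35, encoding IFT121, was at 11.9, 11.5 and 11.0 FPKM with exosomes and at 9.13, 9.0 and 8.43 FPKM with PBS, a rise of 0.34 ± 0.05 (limma adjusted p = 0.000944). Ttc21b, encoding the peripheral subunit IFT139, rose by 0.29 ± 0.05 (limma adjusted p = 0.00181).

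The calls of Ift140 and Ift43 were near the threshold. Ift140, a core subunit, averaged 3.88 ± 0.213 FPKM with exosomes and 3.35 ± 0.0282 FPKM with PBS (limma adjusted p = 0.0468). Ift43, the smallest subunit, averaged 3.57 ± 0.237 FPKM with exosomes and 2.97 ± 0.286 FPKM with PBS (limma adjusted p = 0.0477). Groups did not overlap in either gene. Over 12 alternative analyses the limma adjusted p ran from 0.0283 to 0.154 for Ift140 and from 0.0188 to 0.16 for Ift43, and the authors' deposited table calls 4 of the 6 genes, without these. Ift140 did not pass without exosome replicate 2 or 3 or without any 1 of the PBS libraries. Ift43 did not pass without any 1 of the exosome libraries or without PBS replicate 1 or 3. With median-of-ratios scaling 4 of the 6 genes were raised (limma adjusted p = 0.089 for Ift140 and 0.0763 for Ift43). Ift140 also missed with upper quartile scaling (limma adjusted p = 0.0523), and Ift43 without a filter (limma adjusted p = 0.0773). Entrez identifiers are 213081 for Wdr19, 81896 for Ift122 and 74682 for Wdr35.

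The BBSome is a coat-like complex that moves receptors through the cilium and whose loss causes Bardet-Biedl syndrome. Among the 52 genes are 7 of its subunit genes, which rose by limma with log2 changes of 0.20 to 0.47. The small subunit gene Bbip1, in the list of other cilium genes, averaged 5.17 ± 0.293 FPKM with exosomes and 5.06 ± 0.564 FPKM with PBS and did not pass (limma adjusted p = 0.769). Bbs4 (Entrez 102774) was at 1.81, 1.92 and 1.93 FPKM with exosomes and at 1.29, 0.843 and 1.13 FPKM with PBS, a rise of 0.47 ± 0.09 (limma adjusted p = 0.00221). As a low gene its change is understated on this scale, and the authors' deposited table gives a fold of 1.66 from mean normalised counts of 176 with exosomes and 106 with PBS. Ttc8, encoding BBS8, was the most abundant subunit gene per length, at 13.3 ± 0.802 FPKM with exosomes and 11.3 ± 0.442 FPKM with PBS (limma adjusted p = 0.0128). Bbs9, Bbs7, Bbs5, Bbs2 and Bbs1 had limma adjusted p-values of 0.0171 to 0.0362. The authors' deposited table lists 5 of these 7 as raised. Apart from Bbs4, each subunit call was lost in at least 1 analysis without 1 library, with the highest limma adjusted p over all alternatives between 0.0514 for Ttc8 and 0.113 for Bbs1.

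Genes that recruit and assemble the BBSome moved in part. Arl6 (Entrez 56297), the GTPase that brings the complex to membranes, was at 6.40, 6.45 and 6.64 FPKM with exosomes and at 5.33, 5.52 and 4.50 FPKM with PBS, a rise of 0.30 ± 0.07 (limma adjusted p = 0.00794). Bbs10 (Entrez 71769), a chaperonin-like assembly factor, was at 1.74, 1.86 and 1.68 FPKM with exosomes and at 0.872, 1.38 and 1.25 FPKM with PBS, a rise of 0.36 ± 0.09 (limma adjusted p = 0.0125). Both had exosome values wholly above the PBS values. Bbs12, another such factor, was at 1.22, 1.39 and 1.43 FPKM with exosomes and at 1.22, 1.27 and 1.17 FPKM with PBS, and did not pass (limma adjusted p = 0.365). Among the 10 genes, 9 were raised with all libraries, 4 without PBS replicate 1 and 5 without PBS replicate 3.

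**Figure D3:**
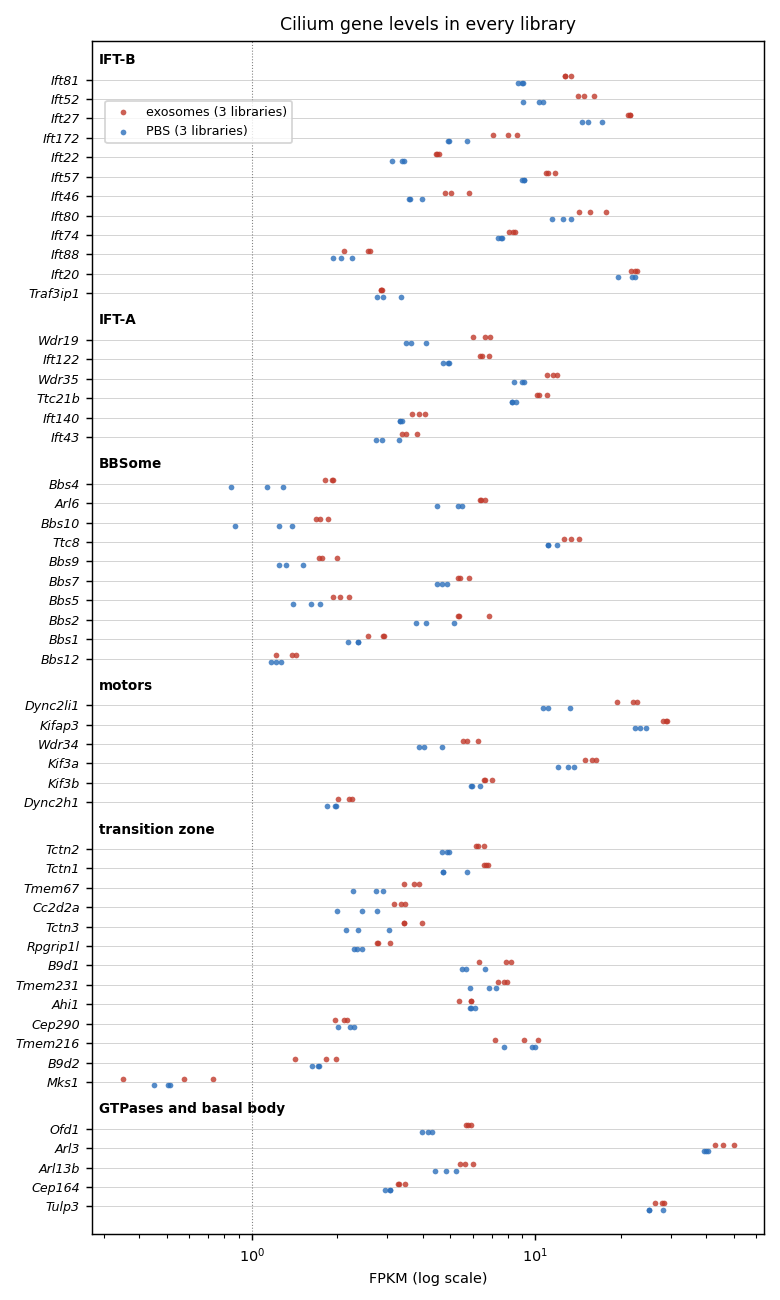
Points are FPKM values (log axis) of the 52 genes in each library, exosomes in red above PBS in blue within each row, grouped as in the text; the dotted line marks 1 FPKM. Arl3 is the most abundant, near 46 FPKM with exosomes and 40 with PBS, and Mks1 lies under 1 FPKM in all 6 libraries.

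Among the motors, 4 of 6 genes rose and 0 fell by limma. The largest change of all 52 genes was in Dync2li1 (Entrez 213575), the light intermediate chain of dynein-2, the motor of return transport. It was at 22.8, 19.4 and 22.1 FPKM with exosomes and at 11.1, 13.2 and 10.6 FPKM with PBS, 1.84-fold higher in mean FPKM (log2 change 0.83 ± 0.09, limma adjusted p = 0.000108). Wdr34 (Entrez 71820), an intermediate chain of the same motor, was at 6.27, 5.75 and 5.57 FPKM with exosomes and at 4.03, 4.67 and 3.87 FPKM with PBS, a rise of 0.41 ± 0.07 (limma adjusted p = 0.002). The heavy chain gene Dync2h1 was at 2.01, 2.26 and 2.20 FPKM with exosomes and at 1.97, 1.98 and 1.84 FPKM with PBS and did not pass (limma adjusted p = 0.215). Its exosome values lay above its PBS values by little.

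Of the heterotrimeric kinesin-2 that drives outward transport, Kifap3 (Entrez 16579), the accessory subunit, was at 28.9, 29.2 and 28.2 FPKM with exosomes and at 22.4, 24.6 and 23.4 FPKM with PBS, a rise of 0.28 ± 0.05 (limma adjusted p = 0.00147). The motor subunit gene Kif3a averaged 15.7 ± 0.666 FPKM with exosomes and 12.9 ± 0.853 FPKM with PBS (limma adjusted p = 0.00606). Its partner Kif3b averaged 6.75 ± 0.252 FPKM with exosomes and 6.10 ± 0.251 FPKM with PBS and did not pass (limma adjusted p = 0.0898).

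Partner subunits were also compared by their ratio within a library, which needs no scaling between libraries. The ratio of Dync2li1 to Dync2h1 in FPKM was 11.4, 8.58 and 10.1 with exosomes and 5.63, 6.68 and 5.76 with PBS. That of Ift81 to Ift74, whose proteins form a dimer, was 1.53, 1.66 and 1.50 with exosomes and 1.15, 1.18 and 1.23 with PBS. For Kif3a to Kif3b the ratio was 2.31, 2.40 and 2.24 with exosomes and 2.18, 2.14 and 2.02 with PBS. In each of these 3 pairs, which were chosen after their values were seen, the groups did not overlap. The two-sided exact permutation test gave p = 0.1 for each ratio (0.1 after Benjamini-Hochberg adjustment over the 3). That is the smallest p that 3 against 3 libraries can give, and it follows from groups that do not overlap. With pairs chosen after their values were seen, the test decides nothing about these ratios.

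Transition zone genes divided into a raised part and a part that did not pass the test. By limma 7 of the 12 tested rose and 0 fell. All 3 tectonic genes, which encode linked membrane and secreted proteins of the gate, were among those raised. Tctn2 (Entrez 67978), 1 of the X-box genes printed, was at 6.28, 6.60 and 6.15 FPKM with exosomes and at 4.69, 4.94 and 4.89 FPKM with PBS, a rise of 0.33 ± 0.05 (limma adjusted p = 0.00127). Tctn1 (Entrez 654470) was at 6.56, 6.72 and 6.83 FPKM with exosomes and at 4.71, 5.74 and 4.71 FPKM with PBS, a rise of 0.35 ± 0.07 (limma adjusted p = 0.00399). Its level is uncertain because 27.5% of its annotated exon bases are shared with Hvcn1 on the opposite strand and the counting is not stated to use strand. Tmem67 (Entrez 329795), encoding meckelin, was at 3.43, 3.90 and 3.73 FPKM with exosomes and at 2.75, 2.91 and 2.28 FPKM with PBS, a rise of 0.36 ± 0.08 (limma adjusted p = 0.00523). Tctn3, Cc2d2a, Rpgrip1l and B9d1 rose by 0.20 to 0.40 on the log2 scale. B9d1 and Rpgrip1l were near the threshold, and B9d1 was raised with overlapping groups, at 8.20, 6.31 and 7.87 FPKM with exosomes and 6.65, 5.53 and 5.70 FPKM with PBS. The limma adjusted p of B9d1 was 0.0385 and ran from 0.00918 to 0.135 over the alternatives, passing neither without exosome replicate 1 or 3 nor without PBS replicate 2 or 3. That of Rpgrip1l was 0.0274 and ran from 0.0145 to 0.0996, not passing without exosome replicate 2 or PBS replicate 1 or 2. With median-of-ratios scaling it was 0.0538 for B9d1 and 0.0508 for Rpgrip1l, and without a filter that of B9d1 was 0.0955.

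The genes not past the threshold in the transition zone were Tmem231, Ahi1, Cep290, Tmem216 and B9d2. Tmem231 had a log2 change of 0.19 ± 0.07 (limma adjusted p = 0.0609) and passed without PBS replicate 2 (limma adjusted p = 0.0248). Over all its alternatives that p ran from 0.0248 to 0.194. Cep290, which encodes part of the links between microtubules and membrane, was at 2.17, 2.12 and 1.97 FPKM with exosomes and at 2.21, 2.02 and 2.30 FPKM with PBS, a log2 change of −0.04 ± 0.07 (limma adjusted p = 0.653). Ahi1, encoding jouberin, averaged 5.75 ± 0.313 FPKM with exosomes and 5.97 ± 0.114 FPKM with PBS (limma adjusted p = 0.532). Tmem216 averaged 8.82 ± 1.51 FPKM with exosomes and 9.14 ± 1.22 FPKM with PBS, with the widest spread of these genes (limma adjusted p = 0.755). Mks1, which encodes a B9-domain protein like B9d1 and B9d2, was at 0.732, 0.351 and 0.577 FPKM with exosomes and at 0.515, 0.452 and 0.506 FPKM with PBS and was not tested. The authors' deposited table gives it mean normalised counts of 47.4 with exosomes and 39.8 with PBS (adjusted p = 0.696 in that table), the lowest of the 52 genes.

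Of the remaining 5 genes, 3 rose and 0 fell by limma. Ofd1 (Entrez 237222), encoding a protein of distal centrioles and centriolar satellites, was at 5.91, 5.80 and 5.71 FPKM with exosomes and at 4.19, 4.33 and 3.98 FPKM with PBS, a rise of 0.40 ± 0.06 (limma adjusted p = 0.000495). Arl3 (Entrez 56350), the GTPase that releases lipidated cargo inside the cilium, was at 50.1, 43.1 and 45.9 FPKM with exosomes and at 39.2, 39.8 and 40.5 FPKM with PBS, a rise of 0.21 ± 0.06 (limma adjusted p = 0.0135). Arl13b (Entrez 68146), its exchange factor on the ciliary membrane, was at 6.03, 5.66 and 5.43 FPKM with exosomes and at 4.83, 5.23 and 4.42 FPKM with PBS, a rise of 0.21 ± 0.07 (limma adjusted p = 0.0333). The authors' deposited table calls Ofd1 alone, with adjusted p-values of 0.306 for Arl3 and 0.0592 for Arl13b. Without PBS replicate 1 only Ofd1 of this group was called. Over 13 alternatives the limma adjusted p ran from 0.00845 to 0.05 for Arl3 and from 0.0159 to 0.11 for Arl13b. The call of Arl3 was lost without PBS replicate 1. That of Arl13b was lost without exosome replicate 1 or 2 and without PBS replicate 1 or 3, with median-of-ratios scaling (limma adjusted p = 0.0541) and without a filter (limma adjusted p = 0.0608). Cep164, which docks the mother centriole at the membrane, and Tulp3, which carries membrane proteins in with IFT-A, had log2 changes of 0.11 ± 0.06 and 0.07 ± 0.06 and did not pass (limma adjusted p = 0.158 and 0.3).

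Cilium genes beyond the 52 were examined through 4 further lists. Other IFT, dynein-2 and BBSome genes rose in 6 of 10 tested and fell in 0 by limma (6 and 0 at an unadjusted p under 0.05, and 5 and 0 of 12 in the authors' deposited table). Among them were Ttc26, an IFT-B subunit gene, with a log2 change of 0.37 ± 0.05 (limma adjusted p = 0.000508), and Ttc30b, another, with 0.48 ± 0.09 (limma adjusted p = 0.00182). Ttc30b and its paralogs are alike in sequence, so its level is uncertain. Other transition zone and nephronophthisis genes rose in 6 of 15 and fell in 0 (6 and 0 at an unadjusted p under 0.05, and 6 and 0 of 17 in the authors' deposited table). There Tmem218 rose by 0.61 ± 0.07 (limma adjusted p = 0.000124).

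The remaining cilium lists held both raised and lowered genes, as did all genes tested, with 25.4% raised and 18.4% lowered. Centriole appendage and ciliogenesis genes rose in 8 of 21 tested (38.1%) and fell in 2, with a median log2 change of 0.08. The authors' deposited table has 2 raised and 2 lowered of 22, where 12.4% of all genes it tests are raised and 13.5% lowered. The ones that fell by limma were Ehd1 and Rab34, both of membrane traffic in early cilium formation, by 0.15 each. Ehd3, a paralog of Ehd1 from the same step, rose by 0.48 ± 0.09 (limma adjusted p = 0.00191). At 0.956 to 1.41 FPKM with PBS, it passed the filter only through its exosome libraries, where it was higher. The other raised genes were Dzip1, Cby1, Cep89, Fbf1, Cep131, Cep19 and Odf2, by 0.17 to 0.28. Over the alternatives the number lowered ran from 0 to 4, and the number raised was 4 without PBS replicate 1 and 5 without PBS replicate 3 or exosome replicate 1 or 3. Ciliary membrane and lipid cargo genes rose in 4 of 12 (33.3%) and fell in 2, with 2 raised without PBS replicate 1 or exosome replicate 1. Inpp5e, a phosphatase held in the cilium, rose by 0.30 ± 0.06 (limma adjusted p = 0.00344), and Pkd2, encoding the channel polycystin-2, fell by 0.44 ± 0.08 (limma adjusted p = 0.0021). Over the 4 lists joined, 24 of 58 genes rose and 4 fell (41.4% raised), with a median log2 change of 0.14. For the same lists the authors' deposited table has 16 raised and 4 lowered of 66. Among 6 tested genes linked to cilium disassembly 1 rose, Nedd9 (0.48 ± 0.06, limma adjusted p = 0.000374), and 1 fell, the microtubule depolymerase gene Kif2a (−0.25 ± 0.06, limma adjusted p = 0.00661). Of 8 tested Hedgehog genes 4 rose and 1 fell, and the target gene Gli1 stayed under the filter, at 0.0984 to 0.229 FPKM with exosomes and 0.0622 to 0.0724 FPKM with PBS.

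**Figure D4:**
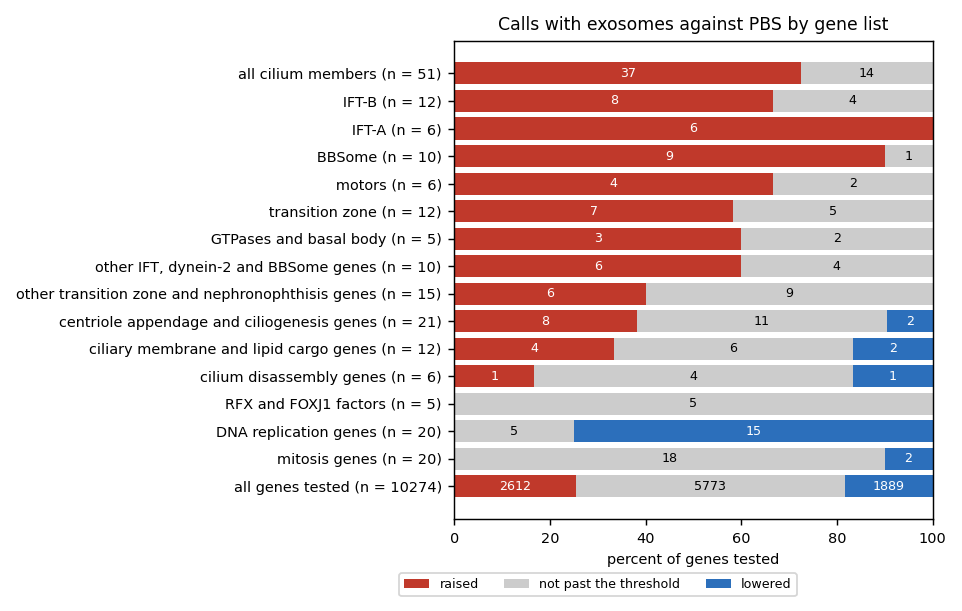
Bars give the percent of tested genes raised (red), not past the threshold (grey) or lowered (blue) with exosomes against PBS by limma, with the number of genes inside, for the cilium groups, other lists and all genes. All 6 IFT-A genes and 9 of 10 BBSome genes are red, against 25.4% of all genes.

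DNA replication transcripts were lower beside the raised cilium genes. Of 20 DNA replication genes 15 fell and 0 rose by limma (17 and 0 at an unadjusted p under 0.05, and 16 and 0 in the authors' deposited table), with a median log2 change of −0.35. Their summed level was 248 to 279 FPKM with exosomes and 326 to 377 FPKM with PBS. Of 20 mitosis genes 2 fell and 0 rose by limma (2 and 0 at an unadjusted p under 0.05, and 2 and 0 in the authors' deposited table), where 18.4% of all genes fell. Their median log2 change was −0.00, and the number lowered was 0 without PBS replicate 1, 1 without exosome replicate 1 and 4 without PBS replicate 3. The summed level of the mitosis genes overlapped between groups, at 184 to 209 FPKM with exosomes and 187 to 229 FPKM with PBS. The part of these shifts in the change of the cilium genes was not tested.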

How the data were processed

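Sample titles gave the groups and replicates. The sources used here do not state whether counting used strand. Per the submitters' processing notes, the authors used DESeq, HTSeq, StringTie, Cufflinks, Bowtie2, HISAT2, SAMtools and Trimmomatic on build mm9, with versions and roles not given there. Per library the authors deposited values headed only as expression, read here as FPKM (fragments per kilobase and 1e6 mapped) because Cufflinks is named and the column sums differ. The same table holds, per the file headers, group means of normalized counts (a signal averaged over libraries), a fold (ratio) of exosomes over PBS, and p-values with adjusted p-values, deposited by the authors. Reads per library were estimated from what 1 read adds to the deposited group means, over genes above 0 in 1 library of a group alone.

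The members and lists were chosen with earlier results of these data known. Genes reaching 1 FPKM in no fewer than 3 of 6 libraries were tested on log2(FPKM + 1) with limma 3.58.1 in R 4.3.3 (group as the only term, variance trend, robust, two-sided, Benjamini-Hochberg over all 10274 genes). The test was checked on simulated libraries. Alternatives were another pseudocount, filter, scaling or variance model, a replicate block and leaving out each library. In each group of genes the up to 3 raised and up to 3 lowered with the smallest adjusted p are given in full. Changes on this scale understate those of low genes. Overlaps between genes were taken from GENCODE M21 (GRCm38), and 8 of the 52 genes share exon bases with another gene, Tctn1 alone over 10%.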

Additional observations from a re-analysis of the deposited data

How the results depend on the processing

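The count of lowered members was 0 under all alternatives run, and the count of raised members, 37 of 51, was 24 of 31 with at least 5 FPKM, where fewer genes were tested. It was 30 of 52 in the count-based comparison of the authors and 33 of 52 without a filter. It was 31 with median-of-ratios scaling, 36 with upper quartile scaling and 37 with a pseudocount of 0.1. Over all genes tested, 2612 of 10274 were raised in the main fit. With at least 5 FPKM it was 1813 of 7327, and without a filter 2546 of 15504. Of all 10274 genes, 2250 were raised with median-of-ratios scaling, 2653 with upper quartile scaling and 2604 with a pseudocount of 0.1. Lowered genes over all genes tested numbered 1889 in the main fit. Under the limma alternatives they ran from 1403 without PBS replicate 1 to 2276 with median-of-ratios scaling. With that scaling more of all genes were lowered than raised, the reverse of the main fit. Leaving out 1 library gave 27 to 35 members raised and 0 lowered, where 2049 to 2621 of all 10274 genes were raised. The median log2 change of the members was then 0.25 to 0.29. That median was 0.31 with a pseudocount of 0.1 and 0.25 with median-of-ratios scaling, against 0.28. Of the 37 calls 25 held under every limma alternative that tested the gene. Without 1 library, changes of genes not past the threshold crossed 0 for B9d2 (−0.04 to 0.11), Tmem216 (−0.16 to 0.07) and Traf3ip1 (−0.10 to 0.01). The labels do not say whether same-numbered libraries were handled together. Deviations of same-numbered libraries correlated at −0.12, −0.021 and −0.295, and those of differently numbered libraries at −0.194 to 0.285. Deviations from means of 3 libraries are tied to each other, so this check cannot exclude a shared batch. With the replicate block 33 members were raised and 0 lowered, where 2288 of all 10274 genes were raised. The calls not made in the blocked fit were those of Ift140, Ift43, Bbs1 and Rpgrip1l (limma adjusted p = 0.0925, 0.0866, 0.0716 and 0.06), which left 4 of 6 IFT-A genes raised. Depth limits Mks1 most.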
